A study of Mus musculus with 8 samples.

Results

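The transcription factor p53 is held at low levels by the proteins Mdm2 and Mdm4 and is released when the kinases Atm and Atr report damaged or stalled DNA. It then raises the RNA of genes that stop the cell cycle, start apoptosis, limit growth signalling and repair DNA, and it raises Mdm2, which closes the loop. In haematopoietic stem cells (HSCs), from which all blood lineages arise, p53 is known for holding cells in quiescence and for removing damaged ones. Described here are 34 genes of this pathway and of the DNA damage response, found by name in the deposited tables among 22050 genes with an mRNA model. They comprise p53 and its inhibitors (3 genes), the damage kinases (4), arrest and growth control genes (8), apoptosis genes (8), death receptor genes (3), the sestrins with Ddit4 (4) and repair genes (4).

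Messenger RNA was measured in HSCs of C57BL/6 mice, an inbred laboratory strain, sorted from bone marrow as CD150+ CD48- EPCR+ Lineage- cells. Neonates taken on postnatal day 5 (P5) gave 4 libraries, and 4-week-old mice gave another 4, each from 100 sorted cells, and the labels name no treatment or engineered allele for these samples. The labels do not say whether each library had its own animal, so p-values measure the spread between these libraries, which may be technical. The series' design text also mentions HSCs cultured for 1 day, which were not analysed here.

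Depth was similar, with 6142760 to 7470777 exon reads per library at P5 and 5775130 to 7212446 at 4 weeks. Among genes of the sort gate, Procr (EPCR) had 47.0 to 65.6 CPM (exon reads scaled to the effective size of the library) and Slamf1 (CD150) 26.9 to 42.9 over all libraries, and Cd48 had 1.71 to 10.02 CPM. Of 9 genes listed for the sorted cells 3 were called: the antigen gene Ly6a was 2.90-fold lower at P5 (adjusted p = 1.49e-05, with 18.8% of exon reads unique), and Fgd5 and Mecom were 1.52-fold and 1.28-fold higher (adjusted p = 7.74e-05 and 0.0106, edgeR). The lineage genes Cd3e, Ms4a1 and Ly6g had no read in any library. The gene of the lineage antigen CD11b, Itgam, averaged 59.9 ± 15.7 CPM in P5 libraries against 13.1 ± 3.73 in 4-week libraries (mean ± SD, n = 4 per age), and the sum of all 10 lineage genes was 60.1 to 106 and 19.8 to 25.5 CPM. Y-linked genes had at most 2 reads in P5 replicates 1 and 3 and 1532 to 2293 in the other 6 libraries.

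Promoter sequence was examined because p53 acts by binding DNA. The p53 decamer half-site, of which a full response element holds a pair, was searched in RefSeq windows from 250 bases before to 50 after each transcription start (GRCm38.p6, the assembly of mm10). The motif is its own reverse complement, so both strands are covered, and it was not searched for overlap with other motifs. Windows were found for 26 of the 34 genes, and 9 of these genes held at least 1 half-site (34.6%, against 9.55% of 27025 genes with a window). No window of a member held a pair of half-sites spaced by 0 to 13 bases, which 0.073% of all windows did. The 9 stretches follow, 5′ to 3′ on the gene's strand, with the half-site in capitals, to show how near each lies to the start of its gene.

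Trp53: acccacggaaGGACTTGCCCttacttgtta

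Mdm2: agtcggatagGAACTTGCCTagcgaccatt

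Ccng1: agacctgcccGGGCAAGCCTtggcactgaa

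Gadd45a: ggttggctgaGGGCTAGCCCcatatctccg

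Bax: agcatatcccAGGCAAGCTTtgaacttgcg

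Aen: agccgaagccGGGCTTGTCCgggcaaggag

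Ei24: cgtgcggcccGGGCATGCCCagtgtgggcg

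Sesn1: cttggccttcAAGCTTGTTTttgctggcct

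Polk: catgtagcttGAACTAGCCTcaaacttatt

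The stretch of Trp53 lies on the + strand at chr11:69580274-69580303, where GENCODE M21 lists no gene, with the half-site beginning at -75 from the start. That of Mdm2 lies on the - strand at chr10:117710925-117710954, also outside genes, beginning at -186. The stretch of Ccng1 (chr11:40755452-40755481, - strand) begins its half-site at -185, outside genes. The stretches of Gadd45a (chr6:67037428-67037457, - strand), Ei24 (chr9:36797325-36797354, - strand) and Aen (chr7:78895927-78895956, + strand) overlap an exon of the gene in GENCODE. That of Bax (chr7:45467080-45467109, - strand) lies within the gene model Gm45808 but in no exon. Those of Sesn1 (chr10:41887256-41887285, + strand) and Polk (chr13:96519399-96519428, - strand) lie in introns of longer transcripts of the same genes, before an internal start. A match describes these letters and is not evidence of binding.

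For the genes as a whole, most differed little between P5 and 4 weeks, and those that differed did so in both directions. Plk2, Sesn1 and Zmat3 were higher at P5, and Atm, Atr, Ccng1 and Sesn2 were lower. No member of the p53 and inhibitor, apoptosis, death receptor or repair groups passed the test in edgeR, DESeq2 or limma-voom, with 1, 0, 0 and 1 genes at an unadjusted p under 0.05 in edgeR. Of the 34 genes, 32 passed the filter on low counts, and 7 of these were called (21.9%), against 16.5% of all 12235 genes tested. The test was the quasi-likelihood test of edgeR, with p-values adjusted by the Benjamini-Hochberg method and a threshold of 0.05. By direction, 3 were higher (9.38%, against 7.99% of all genes) and 4 lower (12.5%, against 8.55%). These shares are near those of all genes. The median log2 fold change was 0.06 over the 32 genes and -0.0042 over all genes, with median absolute values of 0.32 and 0.20. In pooled RNA of 100 cells, fewer cells that use a gene and less RNA per cell cannot be told apart.

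Values of the 2 ages did not overlap for 9 of the 32 genes (28.1%, against 21.2% of all genes). They were the called genes other than Sesn2, plus Phlda3, Ei24 and Rrm2b. Of the 25 genes that were not called, 17 had a 95% interval of the log2 fold change within 1 of 0, which leaves out changes of 2-fold or more. The intervals of the other 8 (Gadd45b, Gadd45g, Btg2, Plk3, Bbc3, Phlda3, Perp and Eda2r) reached past that limit, so that a 2-fold difference was within their error.

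**Figure D1:**
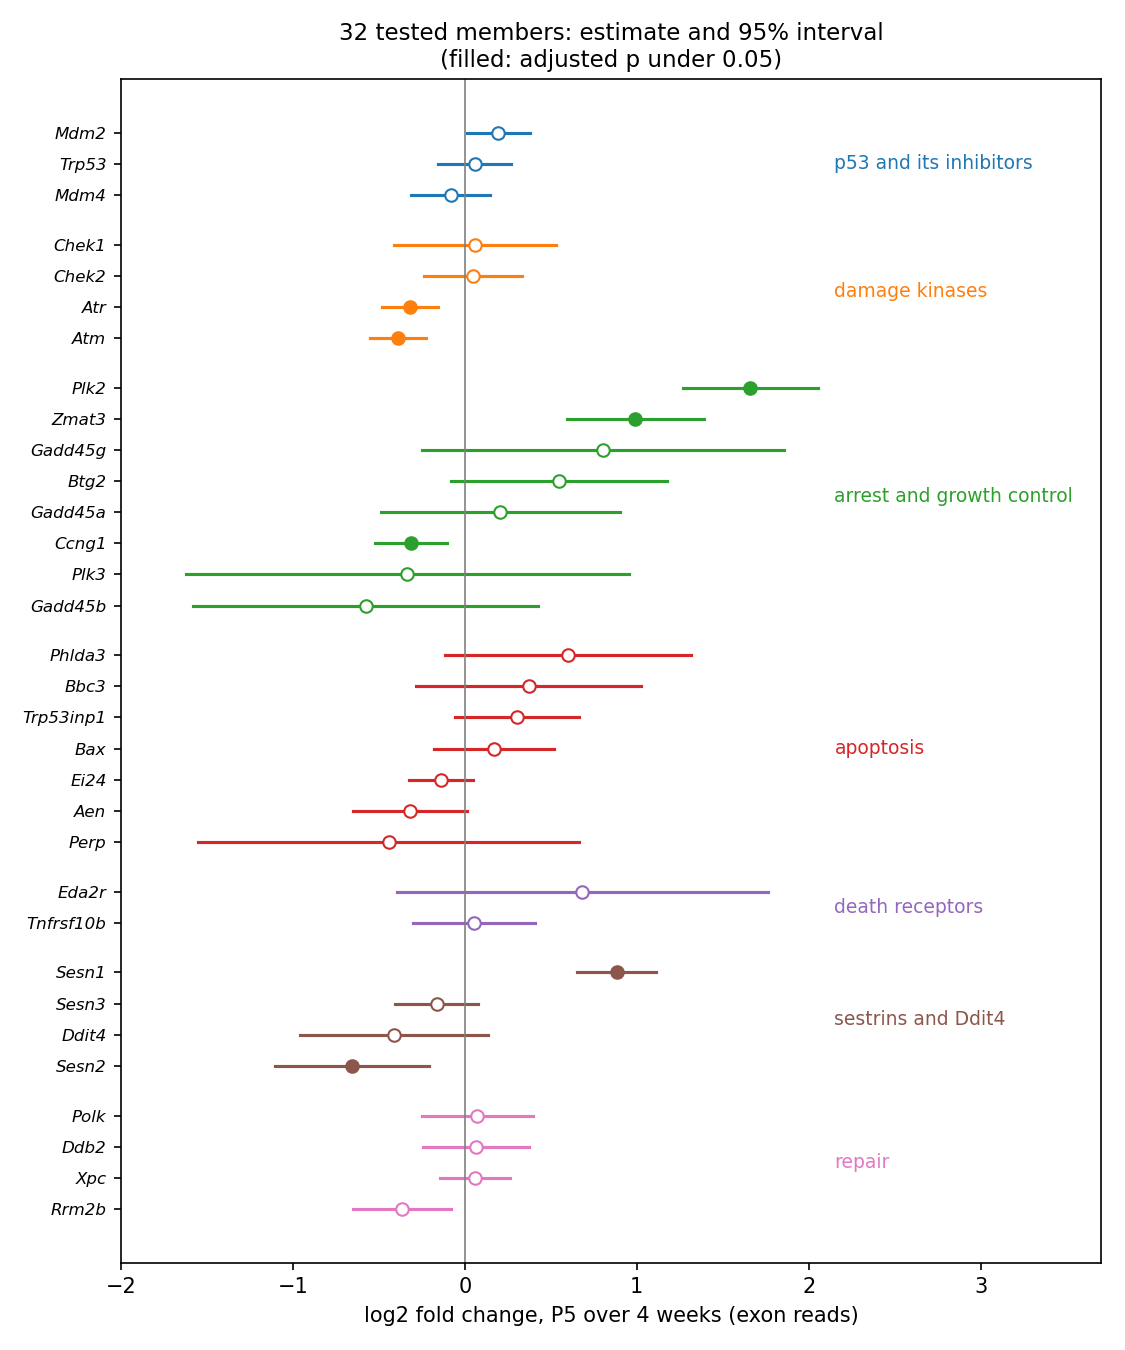
Log2 fold change of exon reads (x axis, P5 over 4 weeks) of the 32 tested genes, grouped by role and coloured by group. Points are estimates, lines 95% intervals and filled points genes with adjusted p under 0.05: Plk2, at 1.66, stands farthest from 0, and the intervals of the low genes Plk3, Gadd45b, Gadd45g, Perp and Eda2r are the widest.

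Levels were compared between genes as CPM per kb of exon. Trp53, p53 itself, was the most abundant of the 34 genes at 4 weeks, at 71.4 ± 3.48 CPM per kb, ahead of its inhibitor Mdm4 at 64.8 ± 1.81 and Sesn1 at 57.4 ± 7.28 (SD, n = 4 each). The libraries of Trp53 and Mdm4 did not overlap, while those of Mdm4 and Sesn1 did. At P5, Sesn1 came first at 106 ± 13.2 CPM per kb, followed by Trp53 at 74.3 ± 11.1 and Mdm4 at 61.2 ± 10.3 (SD, n = 4 each). There Sesn1 was above Trp53 in every library, and Trp53 and Mdm4 overlapped. Next in order at P5 were Btg2 at 36.0 ± 21.0, Mdm2 at 31.2 ± 1.41, Bax at 29.5 ± 5.06 and Ei24 at 28.6 ± 0.688 CPM per kb, and the means of Mdm2 and Bax lay within the SD of Bax. At 4 weeks Ei24 came next at 31.5 ± 1.76 and then Mdm2 at 27.3 ± 2.19 CPM per kb. At the low end, Pmaip1, which encodes the BH3-only protein Noxa, had 2 reads at P5 and 2 at 4 weeks. The death receptor gene Fas had 25 and 41 reads, and both genes were below the filter and were not tested.

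**Figure D2:**
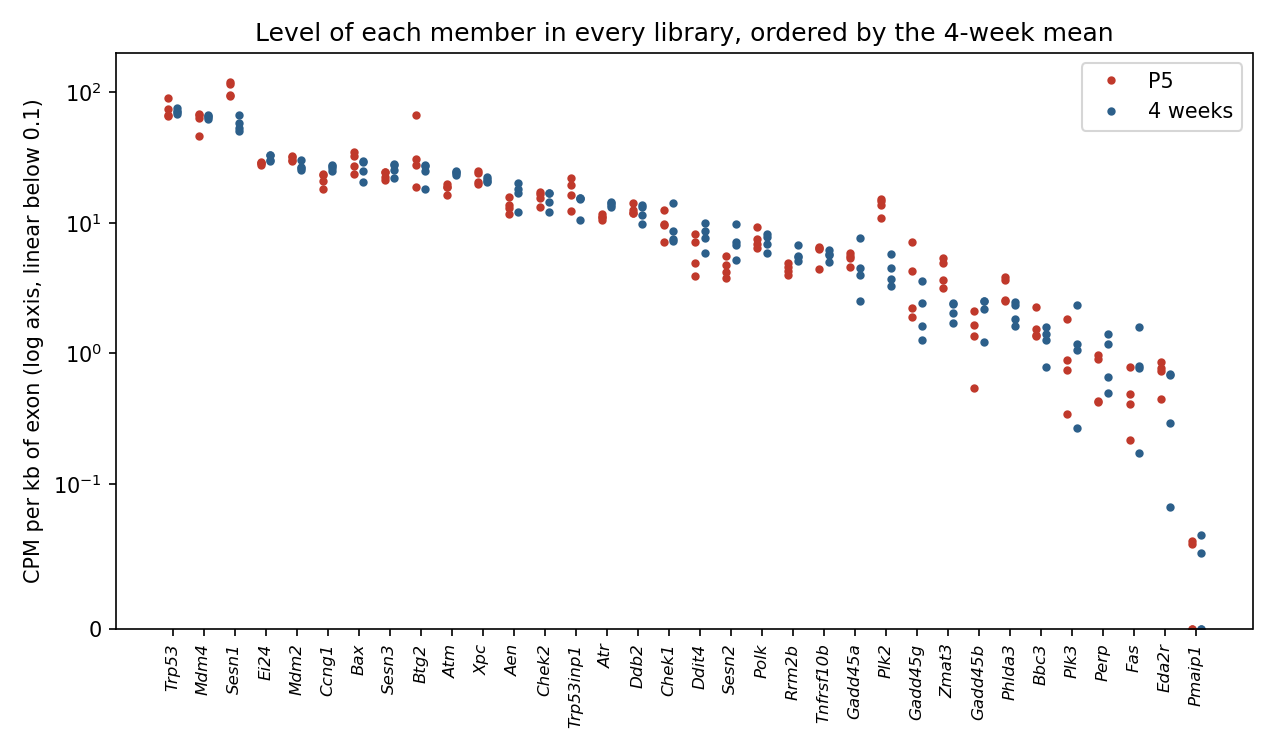
CPM per kb of exon (y axis, logarithmic above 0.1) of all 34 genes in each library, ordered by the 4-week mean. Red points are the 4 P5 libraries and blue points the 4 4-week libraries; Sesn1 and Plk2 show red points wholly above blue, and Pmaip1 sits near 0.

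No gene of the core circuit was called by exon reads. Trp53 (chr11:69580348-69591873) had 205, 151, 152 and 171 CPM in P5 replicates 1 to 4 and 174, 155, 163 and 160 CPM in 4-week replicates 1 to 4. The ages overlapped, and the log2 fold change was 0.06 (95% interval -0.15 to 0.27, adjusted p = 0.744). Mdm4, the inhibitor that blocks p53's activation domain, had 339, 466, 506 and 490 CPM at P5 and 489, 482, 477 and 458 at 4 weeks. Its 1 low value was in P5 replicate 1, which also had the lowest share of intron reads over genes with an mRNA model (60.1%, against 66.8% to 68.7% in the others).

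Mdm2, the ubiquitin ligase that is both inhibitor and target of p53 (chr10:117688875-117710758), had 102, 103, 93.7 and 95.9 CPM at P5 and 82.8, 80.3, 85.1 and 96.0 at 4 weeks. Only 4-week replicate 4 reached the P5 values, and the log2 fold change of 0.19 (95% interval 0.01 to 0.38) did not pass (adjusted p = 0.145). Reads in its introns, which can come from unspliced RNA, gave 99.8, 134, 113 and 109 intron CPM at P5 and 97.9, 78.9, 85.5 and 92.1 at 4 weeks. Every P5 library was thus above every 4-week library, by 1.29-fold (log2 fold change 0.36, SE 0.113, adjusted p = 0.0427). The intron test called 17.9% of its 13180 genes, 9.01% as higher at P5.

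Among the damage kinases, the pair at the top of the response was lower at P5 and their effector kinases were not called. Atm, the kinase that answers double-strand breaks (chr9:53437122-53536828), had 200, 230, 231 and 242 CPM at P5 and 298, 303, 296 and 284 at 4 weeks. Every P5 value was below every 4-week value, by 1.31-fold (log2 fold change -0.39, SE 0.0755, adjusted p = 0.00327). Atr, the kinase that answers stalled replication forks (chr9:95857597-95953217), had 96.1, 102, 108 and 102 CPM at P5 and 132, 130, 126 and 121 at 4 weeks. These too did not overlap, and Atr was 1.25-fold lower (log2 fold change -0.32, SE 0.0752, adjusted p = 0.00998). GENCODE lists antisense transcripts over exons of Atr, as it does for Gadd45a, Plk3, Ei24, Rrm2b and Ddb2. The deposited counts are not given by strand, so reads of those transcripts may be included. In the 6 libraries with Y-linked reads Atm was still called (log2 fold change -0.32, adjusted p = 0.029), and Atr was not, with a like value (log2 fold change -0.32, adjusted p = 0.0511).

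Chek1, the kinase downstream of Atr and a gene of cycling cells, had 32.7, 24.4, 42.8 and 33.4 CPM at P5 and 25.8, 48.6, 24.7 and 29.2 at 4 weeks. Its highest value was in 4-week replicate 2, which also had the highest sum of 16 S-phase genes (3101 CPM, against 1723 to 2667 in the other libraries). The log2 fold change was 0.06 (95% interval -0.41 to 0.53, adjusted p = 0.895). Chek2, the kinase downstream of Atm, had 42.7 to 56.3 CPM at P5 and 39.6 to 55.1 at 4 weeks, with a log2 fold change of 0.05 (95% interval -0.24 to 0.33, adjusted p = 0.854). None of the 16 S-phase and 16 G2/M genes passed in edgeR, where 0 and 2 had an unadjusted p under 0.05, or in limma-voom, and DESeq2 called 0 and 1 (Cdk1, higher). Of the G2/M genes 15 of 16 had a positive sign, with a median log2 fold change of 0.40 against -0.0042 over all genes. Intron reads gave 1 G2/M gene higher, Mki67 (log2 fold change 0.50, adjusted p = 0.029), with 5 at an unadjusted p under 0.05. The part of cycling in the results for members was not tested.

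Arrest and growth control genes held the largest difference among all members. Plk2, a polo-like kinase first known as a serum-induced gene and also a p53 target (chr13:110395044-110400844), had 30.7, 41.5, 42.7 and 38.6 CPM at P5. At 4 weeks it had 16.1, 10.3, 9.25 and 12.6 CPM, so that the lowest P5 value was above the highest 4-week value. It was 3.16-fold higher at P5 (log2 fold change 1.66, SE 0.182, adjusted p = 3.66e-05). Its intron reads were higher too, with 18.1 ± 2.05 intron CPM at P5 over 8.37 ± 3.00 (SD, n = 4 each). The intron log2 fold change was 1.11 with an SE of 0.252 (adjusted p = 0.0109). Its upstream window, on the + strand at chr13:110394794-110395043 and outside any GENCODE gene, is shown because this gene moved most. Capitals mark the letters TGACGTCA, the cyclic AMP response element, searched on both strands (it is its own reverse complement) after the sequence had been seen.

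Plk2: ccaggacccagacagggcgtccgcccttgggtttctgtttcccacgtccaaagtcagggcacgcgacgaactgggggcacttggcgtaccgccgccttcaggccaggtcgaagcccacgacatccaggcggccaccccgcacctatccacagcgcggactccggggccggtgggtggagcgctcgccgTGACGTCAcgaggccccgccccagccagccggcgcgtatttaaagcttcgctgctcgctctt

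The element begins at -62 from the start of Plk2 and at -166 from that of Btg2, which were the 2 members that held it (7.69% of the 26 genes with a window, against 2.03% of all genes with one). No p53 half-site was found in the window of Plk2, which says only that these letters are not there.

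Zmat3, a zinc finger RNA-binding protein and p53 target (chr3:32334792-32365665), had 45.1, 26.6, 42.0 and 30.9 CPM at P5 and 20.7, 14.5, 17.3 and 20.1 at 4 weeks. The ages did not overlap, and it was 1.99-fold higher at P5 (log2 fold change 0.99, SE 0.185, adjusted p = 0.00243). Its highest values were in P5 replicates 1 and 3, the libraries without Y-linked reads. In the 6 libraries with such reads the log2 fold change was 0.66 (adjusted p = 0.04997), and with their presence as a covariate 0.66 (adjusted p = 0.0321). Intron reads of Zmat3 gave a log2 fold change of 0.89 that did not pass (adjusted p = 0.0963).

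Ccng1, cyclin G1, a p53 target that binds Mdm2 and a phosphatase (chr11:40748552-40755309), was lower at P5. It had 82.6, 82.1, 73.4 and 64.3 CPM at P5 and 96.5, 88.4, 93.1 and 97.7 at 4 weeks. These did not overlap, and it was 1.24-fold lower (log2 fold change -0.31, SE 0.0969, adjusted p = 0.0417). This call was lost in 5 of the 8 fits that left out 1 library (without P5 replicate 3 or 4, or 4-week replicate 1, 3 or 4, adjusted p from 0.0769 to 0.113). It was also lost in the 6 libraries with Y-linked reads (log2 fold change -0.36, adjusted p = 0.0907).

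The Gadd45 family, small stress proteins that act on cyclin B-Cdk1 and on stress kinases, was low at both ages. Gadd45a, for which 76.2% of exon reads mapped uniquely, had 7.23, 6.84, 5.66 and 6.63 CPM at P5 and 5.53, 3.10, 9.42 and 4.85 at 4 weeks, with P5 inside the 4-week range. Gadd45b had 0.682, 1.71, 2.10 and 2.68 CPM at P5 and 3.16, 1.55, 3.20 and 2.77 at 4 weeks, from 48 and 68 reads. Gadd45g had 2.04, 7.77, 2.42 and 4.65 CPM at P5 and 1.74, 1.38, 3.87 and 2.63 at 4 weeks, from 113 and 61 reads. None of the 3 was called, with log2 fold changes of 0.20, -0.58 and 0.80 (adjusted p = 0.723, 0.443 and 0.299).

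Btg2, an antiproliferative gene induced by p53 and by growth factors, had 95.2, 205, 58.5 and 84.9 CPM at P5 and 77.1, 85.6, 55.9 and 84.6 at 4 weeks. P5 replicate 2 was far above the rest, and it also had the highest sum of 16 immediate early genes (3789 CPM, against 1687 to 2751 in the others) and the highest Csf1r, a macrophage receptor gene (158 CPM, against 3.45 to 7.92). The log2 fold change of Btg2 was 0.55 (95% interval -0.08 to 1.18, adjusted p = 0.232). It was 0.070 without P5 replicate 2 (adjusted p = 0.825) and 0.93 when a term for Y-linked reads was added to the fit (adjusted p = 0.0558). Of 13 immediate early genes tested, 3 were higher at P5, Egr1, Junb and Ier3, and 2 were lower, Jun and Jund. The share called was 38.5%, against 16.5% of all genes. The summed level of the 16 immediate early genes did not pass the exact test (two-sided exact permutation p = 0.40, adjusted p = 0.489 over 11 list sums). The part of these genes in the results for Plk2 and Btg2 was not tested. Plk3, a related polo-like kinase, had 0.632 to 5.51 CPM over the 8 libraries (log2 fold change -0.34, adjusted p = 0.758).

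The sestrins, stress proteins that restrain mTORC1 signalling, parted by gene. Sesn1, a p53 target (chr10:41810574-41908436), had 313, 398, 385 and 318 CPM at P5 and 225, 169, 194 and 179 at 4 weeks. The ages did not overlap, and it was 1.84-fold higher at P5 (log2 fold change 0.88, SE 0.107, adjusted p = 9.01e-05). Reads across exon junctions of Sesn1 numbered 1988 at P5 and 978 at 4 weeks. Its exon reads were 80.5% uniquely mapped, and with unique reads alone the log2 fold change was 0.87.

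Sesn2, the sestrin known for answering amino acid and endoplasmic reticulum stress (chr4:132492804-132510456), moved the other way, with 11.2, 12.6, 10.02 and 14.8 CPM at P5 and 18.0, 13.8, 25.9 and 19.0 at 4 weeks. Its ages overlapped, since P5 replicate 4 was above 4-week replicate 2, and it was 1.58-fold lower (log2 fold change -0.66, SE 0.208, adjusted p = 0.0462). That call was lost in 6 of the 8 fits that left out 1 library, all but those without P5 replicate 4 or 4-week replicate 2, with adjusted p from 0.0642 to 0.151. It was also lost in the 6 libraries with Y-linked reads (log2 fold change -0.48, adjusted p = 0.283). Sesn3, a FOXO target, had 48.1, 53.3, 53.3 and 45.8 CPM at P5 and 54.8, 47.9, 61.4 and 60.3 at 4 weeks, and was not called (log2 fold change -0.16, 95% interval -0.40 to 0.08). Sesn1 made up 84.0% to 85.9% of the CPM of the 3 sestrins in P5 libraries and 69.0% to 75.5% in 4-week libraries, a share computed after the values were seen. Ddit4, another brake on mTORC1, had 6.63 to 13.9 CPM at P5 and 9.82 to 16.8 at 4 weeks and was not called (log2 fold change -0.41, adjusted p = 0.302).

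Of the Sesn1 promoters, the window of the internal start is shown because it holds the half-site, in capitals. It lies on the + strand at chr10:41887189-41887438, within an intron of the longer transcript, and the window before the outer start held no half-site. These data do not separate transcripts from the starts.

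Sesn1: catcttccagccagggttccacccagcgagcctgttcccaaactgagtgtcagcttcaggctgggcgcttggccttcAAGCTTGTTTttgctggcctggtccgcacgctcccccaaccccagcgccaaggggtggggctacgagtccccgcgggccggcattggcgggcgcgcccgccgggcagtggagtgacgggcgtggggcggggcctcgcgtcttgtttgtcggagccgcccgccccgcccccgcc

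**Figure D3:**
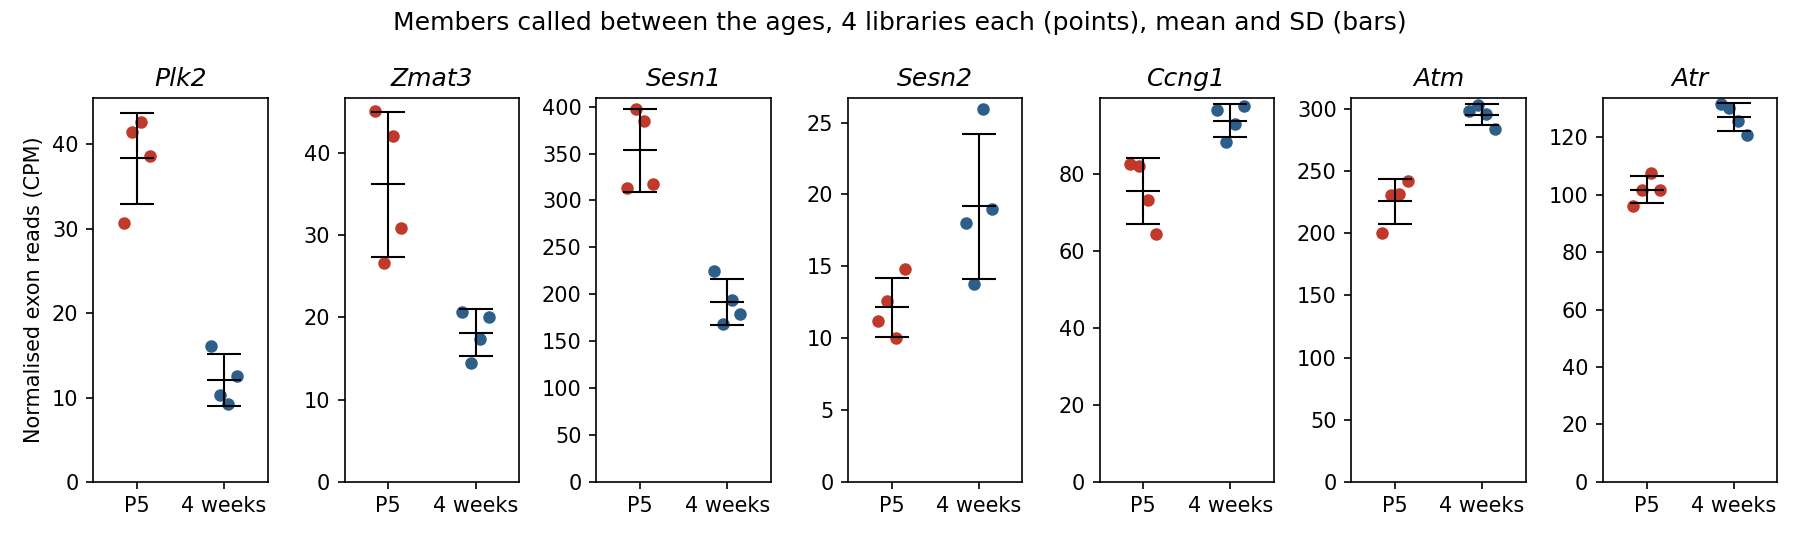
Normalised exon reads (CPM, y axis from 0) of the 7 called genes in each of 4 P5 (red) and 4 4-week (blue) libraries, with mean and SD as black bars. Plk2, Zmat3 and Sesn1 are higher at P5 with no overlap, Ccng1, Atm and Atr are lower with no overlap, and Sesn2 is lower with ages that overlap.

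None of the 7 apoptosis genes tested was called. Bax, the pore-forming effector of mitochondrial apoptosis and the most abundant of the group at P5 per kb, had 25.4, 32.2, 21.7 and 29.8 CPM at P5 and 23.2, 19.1, 26.8 and 27.6 at 4 weeks. The log2 fold change was 0.17 (95% interval -0.18 to 0.52, adjusted p = 0.528). Ei24, a protein of the endoplasmic reticulum found as a p53-induced gene and the most abundant at 4 weeks, had 66.3, 63.3, 65.8 and 66.8 CPM at P5 and 75.2, 76.2, 68.0 and 69.7 at 4 weeks. All P5 values of Ei24 were below all 4-week values, but the difference was small (log2 fold change -0.14, adjusted p = 0.306), and 70.2% of its exon reads mapped uniquely. Bbc3, the BH3-only protein Puma, had 5.36 to 9.01 CPM at P5 and 3.10 to 6.32 at 4 weeks (log2 fold change 0.37, adjusted p = 0.454). Phlda3, an inhibitor of Akt, had 3.72 to 5.64 CPM at P5 and 2.37 to 3.62 at 4 weeks, without overlap (log2 fold change 0.60, 95% interval -0.12 to 1.32, adjusted p = 0.251).

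Trp53inp1, a cofactor of p53-driven apoptosis and autophagy, had 66.7 to 120 CPM at P5 and 57.2 to 84.6 at 4 weeks (adjusted p = 0.251). Aen, a nuclease induced by p53, had 32.2 to 43.4 CPM at P5 and 33.5 to 55.5 at 4 weeks (adjusted p = 0.187), and it was called lower in the fit without 4-week replicate 3 (log2 fold change -0.45, adjusted p = 0.0454). Perp, a membrane protein of epithelia, had 35 and 44 reads in all (adjusted p = 0.615). Of the death receptors, Tnfrsf10b, the receptor of Trail, had 20.3, 20.2, 20.8 and 14.0 CPM at P5 and 18.5, 18.1, 15.98 and 19.8 at 4 weeks (log2 fold change 0.05, 95% interval -0.30 to 0.41). Eda2r, a receptor of the ectodysplasin family, had 118 and 68 reads (log2 fold change 0.68, adjusted p = 0.397).

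The 4 repair genes were not called. Xpc, the damage sensor of nucleotide excision repair and the most abundant of them per kb, had 72.4, 90.1, 86.8 and 74.9 CPM at P5 and 74.6, 76.5, 78.2 and 81.7 at 4 weeks (log2 fold change 0.06, 95% interval -0.15 to 0.26). Ddb2, which hands damage to Xpc, and Polk, a translesion polymerase, had log2 fold changes of 0.07 each (adjusted p = 0.804 and 0.796). Only 63.8% of the exon reads of Ddb2 mapped uniquely, and its exons overlap the antisense gene Acp2. Rrm2b, the p53-induced subunit of ribonucleotide reductase, had 27.4, 23.9, 25.9 and 29.6 CPM at P5 and 40.8, 30.7, 33.1 and 33.1 at 4 weeks. Rrm2b did not overlap between ages but missed the threshold (log2 fold change -0.37, adjusted p = 0.0754), and with uniquely mapped reads it passed (log2 fold change -0.45, adjusted p = 0.0388).

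Intron reads gave a second readout, since exon and intron reads of a gene are counted apart although they come from the same libraries. Of 28 members that passed the filter on intron reads, 2 were called (7.14%, against 17.9% of all genes by intron reads, 9.01% higher and 8.86% lower). They were Plk2 and Mdm2, both higher at P5, and none was lower (edgeR, 5 of the 28 at an unadjusted p under 0.05 in either direction). For 20 of 27 genes tested by both, the sign was the same. For Sesn1 the log2 fold change was 0.88 by exon reads and 0.20 by intron reads (intron adjusted p = 0.168), from 13916 and 12875 intron reads. Its ratio of exon to intron CPM was higher at P5 in every library, by 0.68 on the log2 scale. This had an exact permutation p = 0.0286, the smallest that 70 splits allow. It was adjusted over the 8 genes so compared, the members called by exon reads and Mdm2 (adjusted p = 0.152). Over 8 genes, 1 gene alone at the smallest p could not pass, so the adjusted p cannot decide. For Atr, lower by exon reads, intron reads gave 0.015 (adjusted p = 0.946), and for Atm -0.26 (adjusted p = 0.177). Ccng1 had only 107 and 122 intron reads.

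**Figure D4:**
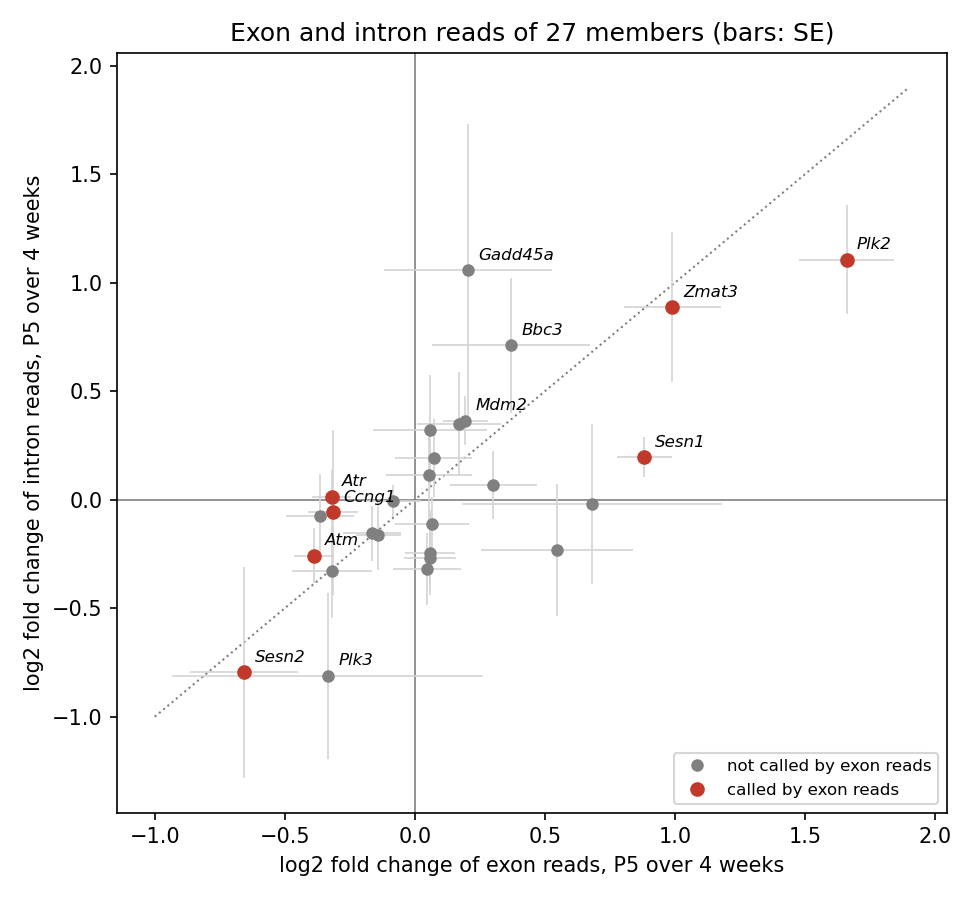
Log2 fold change of intron reads (y axis) against that of exon reads (x axis) for the 27 genes tested by both, with SE bars; the dotted line marks equal change. Plk2 and Zmat3 lie high on both axes, while Sesn1 lies at 0.88 by exon reads and 0.20 by intron reads.

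The other genes of the pathway were read from lists that were chosen with earlier results of these data known. Of 27 other p53 targets tested in edgeR, 1 was higher and 5 were lower at P5 (22.2% called). Over all genes 16.5% were called, with 7.99% higher and 8.55% lower. Signs in the list were 15 positive and 12 negative, with a median log2 fold change of 0.07. Cdkn1a, the Cdk inhibitor p21 and the best known target of p53, was the 1 that was higher, with 7.91, 9.79, 7.60 and 10.7 CPM at P5 and 2.84, 4.83, 2.69 and 1.94 at 4 weeks (log2 fold change 1.56, adjusted p = 0.00398). Only 25.3% of the exon reads of Cdkn1a mapped uniquely. DESeq2 also called Epha2 higher (log2 fold change 2.41, adjusted p = 0.00901), and limma-voom called 1 target higher. The genes that were lower were Trp53i11 (1.85-fold, adjusted p = 0.000233), the membrane protein gene Ninj1 (2.01-fold, adjusted p = 0.000931), the ferrireductase gene Steap3 (3.13-fold), the thiamine transporter gene Slc19a2 (1.42-fold) and the lipase gene Abhd4 (1.31-fold). By intron reads 2 of 24 such targets were called higher, Cdkn1a (log2 fold change 1.55, adjusted p = 0.0135, edgeR) and Ptpn14. Another 5 were called lower, Fdxr, Ninj1, Polh, Ppm1d and Steap3. Over all genes intron reads called 17.9%, with 9.01% higher and 8.86% lower.

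Of 17 regulators of p53, 1 was higher in edgeR and none lower (5.88% called, against 16.5% of all genes). It was Hipk2, a kinase that phosphorylates p53, at 495 ± 59.5 CPM against 404 ± 27.8 (SD, n = 4 each; adjusted p = 0.0393). The ubiquitin ligase gene Ube4b followed (adjusted p = 0.0515, with 13.05% of exon reads unique). DESeq2 and limma-voom called Ube4b higher too (adjusted p = 0.0237 and 0.0498). Of 27 genes of damage sensing and checkpoints, 2 were lower and none higher (7.41% called, against 16.5% of all genes). They were Mdc1, a scaffold at breaks that Atm phosphorylates (1.27-fold, adjusted p = 0.0115, with 4.29% of exon reads unique), and Wee1, the kinase that restrains Cdk1 (1.36-fold, adjusted p = 0.0175). By intron reads 2 of 17 regulators were called higher (Sirt1 and Wwp1) and none lower. Of 26 damage sensing genes intron reads called 1 higher (Nbn) and 2 lower (Rad1 and Wee1).

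In the repair lists, exon reads gave calls for 0% to 11.1% of genes, against 16.5% of all genes. Nucleotide excision repair had 2 of 18 genes higher in edgeR, the ubiquitin ligase subunits Ddb1 (1.20-fold, adjusted p = 0.0403) and Cul4a (1.16-fold, adjusted p = 0.0479), and none lower. Recombination and Fanconi anaemia genes had 1 of 25 higher in edgeR, Fancm, a fork-remodelling translocase (1.35-fold, adjusted p = 0.0245), and none lower, with 3 at an unadjusted p under 0.05. In that list Rad52, a recombination mediator, missed the threshold in edgeR (log2 fold change -0.40, adjusted p = 0.061) and was called lower in limma-voom (adjusted p = 0.0499). Translesion genes had 1 of 10 lower, the polymerase gene Poli (1.37-fold, adjusted p = 0.0261), and Rev3l was not called (adjusted p = 0.205). Of 14 end-joining genes edgeR and limma-voom called none and DESeq2 called 1. In edgeR 1, Xrcc5 (Ku80), had an unadjusted p under 0.05 (adjusted p = 0.059). Polm, the next by p-value, had an adjusted p of 0.187. In these lists most calls by intron reads were lower at P5 (edgeR). Over all genes intron reads called 17.9%, with 9.01% higher and 8.86% lower. Intron reads called 4 of 24 recombination and Fanconi genes lower (Palb2, Rad51c, Rad51d and Rad52) and none higher. In nucleotide excision repair they called 3 lower (Cul4a, Gtf2h2 and Gtf2h3) and 1 higher (Gtf2h1), of 17, so that Cul4a was higher by exon and lower by intron reads. They called 1 of 13 end-joining genes lower, Xrcc6 (Ku70), and 1 of 10 translesion genes lower, Poli.

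Markers of other cells differed between the ages and are given as measured. The sum of erythroid genes was 643 to 997 CPM at P5 and 172 to 256 at 4 weeks. The beta-globin gene Hbb-bt alone averaged 710 CPM of a mean sum of 800 at P5, and 96.8 of 204 at 4 weeks. Of its exon reads 23.6% were unique. Among 4 erythroid genes tested edgeR called only Hbb-bt, while DESeq2 called Hbb-bt higher and Klf1 and Car1 lower. The sum of B cell genes was 34.5 to 51.7 and 21.5 to 26.8 CPM. Cd79b, the only 1 of those 10 genes tested, averaged 39.3 of 41.7 CPM at P5 and 21.5 of 23.2 at 4 weeks. Sums of myeloid genes (282 to 491 and 336 to 376, led by Lyz2), T and NK genes (30.4 to 48.6 and 27.7 to 42.6) and endothelial genes (756 to 889 and 720 to 830, led by Eng) overlapped between ages, but single genes in them differed. Among 6 myeloid genes tested Mpo (3.76-fold) and Csf1r were called higher at P5, and Csf3r (1.72-fold) and S100a8 (0 reads at P5 and 64 at 4 weeks) lower. Among 4 T and NK genes Cd4 was 2.55-fold higher and Nkg7 4.28-fold lower. Among 8 endothelial genes Tek was 1.57-fold higher (adjusted p = 0.000474) and Cdh5, with 285 reads at P5 and 1 at 4 weeks, was called higher (adjusted p = 1.71e-05). The megakaryocyte genes Gp9 and Itga2b were 2.50-fold higher and 1.89-fold lower (adjusted p = 0.00153 and 0.00204). The lineage, erythroid and B cell sums did not overlap between ages and had the smallest p that the exact permutation test allows (p = 0.0286). Over 11 sums no adjusted p could pass unless 7 reached that value, so the adjusted p of 0.105 was set by the design. The part of such cells in the results above was not tested.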

How the data were processed

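The deposited tables hold 48835 gene rows with read counts, not normalised, for exons, introns, junctions and whole genes. Per the file headers reads had been trimmed, and per the submitters' processing notes the genome was mm10. Neither aligner nor counter nor annotation is given in the sources used here. RPKM values, deposited alongside, were left out, as was a fold change and p-value table. Other deposited columns, among them exon lengths per the file headers, describe the gene models.

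Total exon reads of rows with an mRNA model were summed over copies of a gene. In P5 replicate 4, 24 names turned into dates were restored by row order. Genes were tested in R 4.3.3 with edgeR 4.0.16 (TMM scaling, filterByExpr, quasi-likelihood, age alone, 8 libraries). The 12235 genes kept held 99.82% of exon reads, and p-values were adjusted over all of them by the Benjamini-Hochberg method, with a threshold of 0.05. CPM are exon or intron reads scaled to the effective library size. SEs are approximate, from the fold change and the F statistic. Alternatives used limma 3.58.1 and DESeq2 1.42.0. The fit was tested on simulated data with known changes and a common dispersion for all genes. It recovered 48.5% of 1.5-fold, 93.9% of 2-fold and 100% of 4-fold changes, so smaller changes can be missed. Exon-to-intron ratios (pseudocount 0.01 CPM) were chosen after values were seen, and exact tests are two-sided over 70 splits, in scipy 1.17.1.

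The members and lists were chosen with earlier results of these data known. All members were described, with values by library for called genes, the most abundant of each group, p53, Mdm2 and the Gadd45 genes. From each other pathway list the 2 genes with the smallest p-value were named, and Cdkn1a, and from each marker list the most abundant, except for the megakaryocyte list, whose sum is not reported here. Further genes (called ones of the pathway and marker lists, also by intron reads) were named after their values were seen. Counts without molecular identifiers are not independent molecules. Positions and promoters are from RefSeq on GRCm38.p6.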

Additional observations from a re-analysis of the deposited data

Results flagged for a closer look

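Within each age, the highest and lowest library was compared with the other 3 by Dixon's ratio for the members, the other genes given with values above and the list sums. Of 171 such groups, 8 held an outlying library, where chance gives about 1 in 20. Among members, Trp53inp1 was low in 4-week replicate 2, at 57.2 CPM, and Tnfrsf10b was low in P5 replicate 4, at 14.0 CPM. P5 replicate 2 was high in Csf1r, at 158 CPM, and in the sum of myeloid genes that holds it, at 491 CPM, and low in Wee1, at 69.6 CPM. Hipk2 was high in P5 replicate 3, at 584 CPM. Poli was high in 4-week replicate 3, at 67.1 CPM. Cdh5 had its only 4-week read in replicate 3, at 0.168 CPM.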

How the results depend on the processing

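Plk2 was higher at P5 in all 20 alternatives, and Sesn1, Zmat3 and Atm kept their calls in all but that with intron reads alone (19 of 20 each). Atr kept its call in 15, Ccng1 in 10 and Sesn2 in 7. Leaving out 1 library gave 3 members higher in every fit and 2 to 4 lower, with 702 to 985 genes higher and 795 to 1069 lower. The fits without P5 replicate 3, 4-week replicate 1 or 4-week replicate 4 gave 2 lower. With replicate number as a block 1 member, Atm, was lower, and 577 genes were higher. There Atr, Ccng1 and Sesn2 lost their calls (adjusted p = 0.0549, 0.107 and 0.118, edgeR). The labels do not say what libraries of the same number share. Such libraries deviated from their age's mean with correlations of -0.278 to -0.0335, which cannot tell whether they share a preparation. The file headers number 2 of the 4-week libraries otherwise than their titles do. Exon plus intron reads gave 4 members higher and 1 lower, and intron reads 2 higher and 0 lower. With exon plus intron reads Mdm2 was called higher (log2 fold change 0.30, adjusted p = 0.04996, edgeR). A 1.5-fold minimum gave 1 member lower, 547 genes higher and 624 lower. With the Y-linked covariate 1 member was lower, with 628 genes higher and 608 lower, and in the 6 libraries with Y-linked reads 1, 619 and 638, where fewer P5 libraries remain.

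Signs changed for some genes that were not called. With the Y-linked covariate, and in the 6 libraries with such reads, log2 fold changes were -0.019 and -0.018 for Trp53, 0.0037 and 0.0040 for Mdm4, -0.15 and -0.15 for Chek1, 0.18 and 0.18 for Plk3, 0.0058 and 0.0043 for Perp, and -0.087 and -0.087 for Tnfrsf10b. With exon plus intron reads, and with intron reads, they were -0.044 and -0.27 for Trp53, -0.23 and -0.32 for Chek2, -0.073 and -0.24 for Xpc, and -0.12 and -0.11 for Ddb2. With intron reads alone they were -0.23 for Btg2, -0.020 for Eda2r and 0.015 for Atr, whose call was lost. Leaving out 1 library gave ranges that crossed 0 for Trp53 (-0.045 to 0.11), Mdm4 (-0.14 to 0.033), Chek1 (-0.084 to 0.34), Chek2 (-0.043 to 0.12), Plk3 (-0.86 to 0.19), Tnfrsf10b (-0.0011 to 0.18), Polk (-0.040 to 0.14) and Ddb2 (-0.022 to 0.14). The cause was not tested. Counts limit the genes under 100 reads at an age, for which only large changes could be seen.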
